A study of Drosophila montana with 9 samples.

Results

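Dopa decarboxylase (*Ddc*), *ebony* (*e*), *black* (*b*) and *Dopamine N acetyltransferase* (*Dat*) are enzymes of dopamine, beta-alanine and cuticle pigment metabolism. They were taken from a *Drosophila montana* candidate gene microarray as all experimental probes named for these genes, *black* being spelled in full in its probe names. The members were 4 of the 108 genes on the array, and their 8 probes, 2 per gene, were 8 of the 197 probes used. The question of the study was which candidate genes changed their expression with reproductive diapause and with the age of the females. Whole-body RNA of 13 pooled females was put on each of 9 one-colour arrays, which fell into 3 groups of 3. All flies came from O3F66 from Oulanka, Finland, a single isofemale line kept in the laboratory, so that the arrays measured separate pools of one genetic background.

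Diapausing females were 14 days old and had been kept at 16°C in a light:dark cycle of 16:8. Reproducing females were also 14 days old and came from 16°C, but from continuous light (24:0). Young females were 1 day old and were taken directly from the culture in continuous light at 19°C. Both older groups had been held in vials of yeast-sucrose-agar medium with added yeast, and young females had not been placed in such vials. The older groups therefore differed from young females in age, temperature and this feeding at once, and diapausing females also in day length. These cannot be told apart. The labels give the light regime of each group and not the ovarian state of single females. In whole-body RNA, fewer cells of a type and less RNA per cell cannot be told apart.

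In insects dopamine is made from tyrosine by way of dopa, and *Ddc* carries out the last step, the removal of a carboxyl group; the same enzyme also makes serotonin. Dopamine then serves as a neurotransmitter or leaves epidermal cells as a precursor of cuticle pigment, and in *D. melanogaster* the fate of this pool sets the colour and hardness of the newly emerged fly. The *ebony* protein joins dopamine to beta-alanine for light, tan cuticle and, in glia of the visual system, joins histamine to beta-alanine. The *black* protein supplies beta-alanine from aspartate, and *Dat* adds an acetyl group to dopamine and related amines, which removes them as transmitters and gives a precursor of colourless cuticle.

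Each probe was an oligonucleotide of 60 bases, spotted once per array and designed on exon sequence of *D. montana*. The probes of *Ddc* are shown because this was the 1 member with changes that passed the test, and those of *e* because its probes behaved differently from each other. They are written in lower case as the array files give them, 5′ to 3′, with no stretch singled out in capitals.
Ddc_1F1R: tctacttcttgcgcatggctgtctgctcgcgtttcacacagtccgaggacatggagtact
Ddc_2R: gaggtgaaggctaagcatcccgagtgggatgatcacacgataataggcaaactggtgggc
e_1F1R: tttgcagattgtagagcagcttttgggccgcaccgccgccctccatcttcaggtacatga
e_1_L: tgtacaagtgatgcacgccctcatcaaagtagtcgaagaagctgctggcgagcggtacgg
Both *Ddc* probes had a GC content of 53.3% and both *e* probes one of 55%, so that base composition was equal within each pair. The longest run of bases that the 2 probes of a gene shared, on either strand, was 6 for *Ddc* and 8 for *e*, which means that the probes of a gene lay on different stretches of its transcript. As written, e_1F1R had 1 reading frame free of stop codons against 2 on its reverse complement, and e_1_L had 2 on each. Which strand these probes match was not settled here. All values given for *e* below, also those relative to *Ddc*, carry this limit. The files name no genome build, and no position in the genome is given for the genes.

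Of the 72 values that the 8 probes gave on the 9 arrays, 65 were well above background, and 0 of their spots were marked as outliers or as saturated. All 7 values not well above background belonged to 1 probe, e_1_L. The arrays had between 120 and 147 of the 197 probes well above background. Negative control spots had an SD of 20.4 on the array of reproducing replicate 40 and between 2.20 and 12.7 on the other arrays. The spike-in spots, which bind RNA added to each sample, had a median intensity between 1502 and 2571 on the diapausing arrays, between 922 and 1594 on the reproducing arrays and between 684 and 923 on the young arrays. The normalization used these spots, and the part of their difference in the results was not tested. Each of 3 slides held 1 array of every group.

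*Ddc*, the enzyme that makes dopamine, had a lower level at 14 days of age, in diapause or not, than in young females, and this was seen with each of its probes. The mean spot intensity of Ddc_1F1R was 1636, 1454 and 2047 in diapausing replicates 27, 42 and 43, 1668, 1447 and 945 in reproducing replicates 22, 23 and 40, and 3833, 7360 and 5162 in young replicates 12, 16 and 17. Ddc_2R gave 553, 375 and 585 in the diapausing samples, 567, 383 and 238 in the reproducing samples, and 1376, 2287 and 1868 in the young samples, in the same order of replicates. Already before normalization, every young array was brighter than each of the 6 arrays of older females for both probes, while the diapausing and reproducing arrays overlapped. The share of all probes with such a separation before normalization was not counted.

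**Figure D1:**
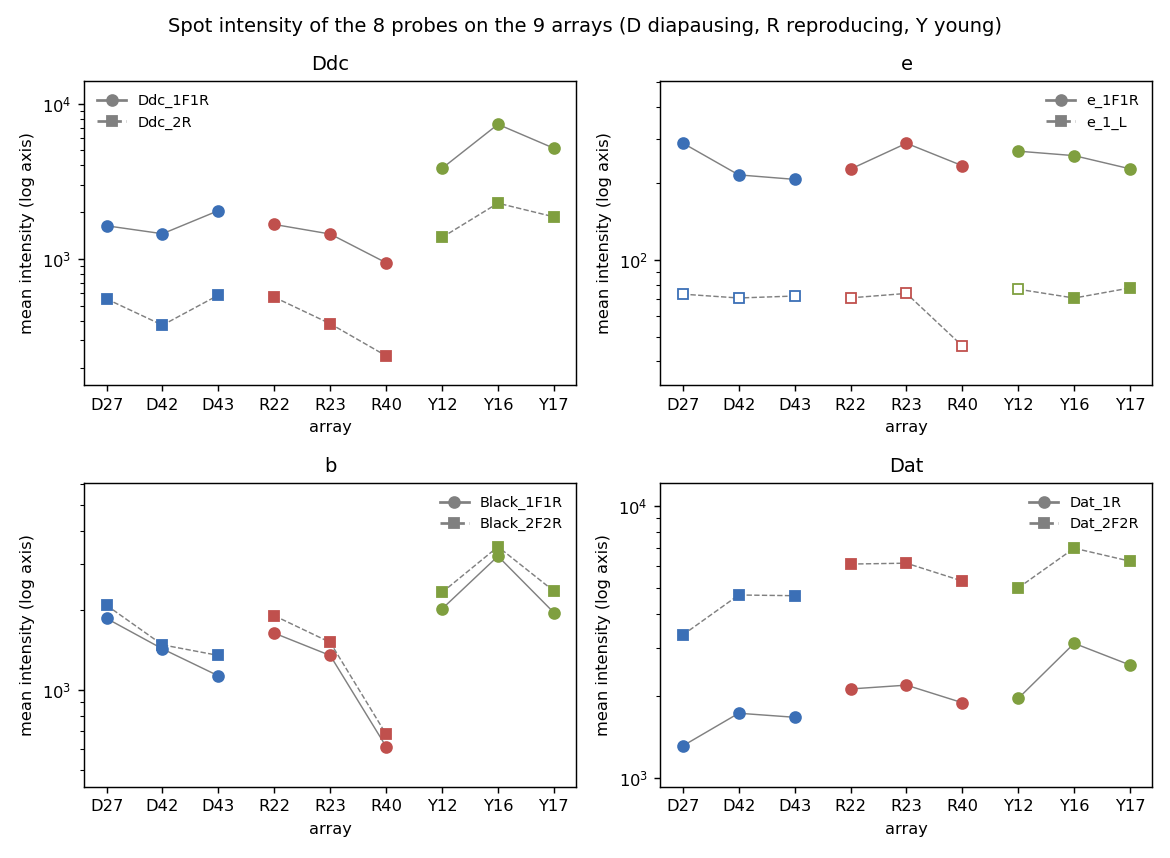
Mean spot intensity (log axis) of the 8 probes on each of the 9 arrays, in 1 panel per gene with 2 probes each; open symbols are spots not well above background. Both *Ddc* probes are highest on the 3 young arrays, e_1_L stays between 45.9 and 77.6 everywhere, and both *b* probes are lowest on reproducing replicate 40 (611 and 681).

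After normalization and averaging of the probes, *Ddc* was at 10.14, 9.13 and 9.75 (log2) in the diapausing samples, at 9.77, 9.38 and 8.54 in the reproducing samples and at 11.28, 12.24 and 11.77 in the young samples. The order of the group means was young (11.76 ± 0.48, SD, n = 3), diapausing (9.67 ± 0.51) and reproducing (9.23 ± 0.63), with young apart from both others and the latter overlapping. Compared with young females, *Ddc* was down-regulated 4.26-fold in diapausing females (log2 fold change -2.09, SE 0.42; limma, Benjamini-Hochberg adjusted p = 0.0463) and 5.79-fold in reproducing females (-2.53, SE 0.42; adjusted p = 0.00936). A gene counted as called where its adjusted p was under 0.05 and its fold change above 2. In diapausing against young females 2 of the 108 genes (1.85%) were called, both of them lower, and in reproducing against young females 9 (8.33%), of which 7 (6.48%) were lower. *Ddc* was the 1 member called in each. Between diapausing and reproducing females its log2 fold change was 0.44 (95% interval -0.51 to 1.39, adjusted p = 0.716), or 0.067 without reproducing replicate 40 and 0.053 with the deposited table of processed values. In that comparison 1 gene in 108 (0.926%), *Dca*, was called. *Dca* is named here only because that count is 1.

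**Figure D2:**
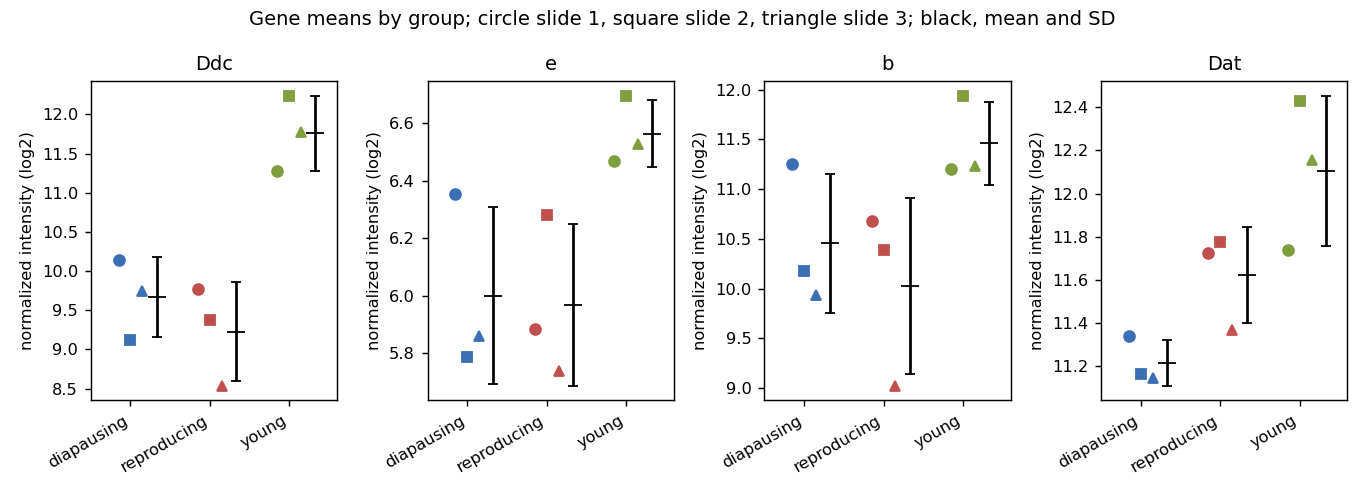
Normalized log2 intensity of each gene by group, 1 symbol per array with its shape giving the slide, and the mean and SD (n = 3) in black; the vertical scales differ between panels. *Ddc* lies between 11.28 and 12.24 in young females and at 10.14 or lower in all others, whereas the *b* panel shows the spread within the older groups.

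The fold change of *Ddc* held for its probes taken singly, which were tested among all 197 probes. For Ddc_1F1R it was -1.93 (log2) in diapausing and -2.35 in reproducing females against young females, and for Ddc_2R it was -2.25 and -2.72. All 4 of these were called (adjusted p = 0.0392 for both probes in the first comparison and 0.0133 for both in the second; limma over 197 probes), against 3.05% and 4.57% of all probes, and the other 6 member probes were called in neither. Over the 9 arrays the values of the *Ddc* probes had a Pearson correlation of 0.993, as a description of 2 spots that share each array's RNA.

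Within slides, *Ddc* was lower than in young females on all 3 slides. Diapausing minus young was -1.14 on slide 1, -3.11 on slide 2 and -2.02 on slide 3, and reproducing minus young was -1.51, -2.86 and -3.23. Diapausing minus reproducing had no common sign, at 0.37, -0.25 and 1.21. The median gene was itself lower in diapausing than in young females (-0.39), and relative to that median *Ddc* stood at -1.70, or between -1.78 and -1.12 over 13 other ways of processing. In reproducing females the corresponding value was -2.39, between -2.40 and -1.75. The call in diapausing females was the less secure: it did not survive a slide term in the fit (adjusted p = 0.0968), was kept in 7 of 13 processing alternatives, and was kept only without diapausing 27, reproducing 40 or young 12 when each of the 9 arrays was left out (adjusted p up to 0.261). In reproducing females it was kept in 13 of 13 and was lost only without young 16 (0.0512) or young 17 (0.0516).

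*Ebony*, which conjugates dopamine with beta-alanine, was dim and gave no call. The intensity of e_1F1R was 288, 216 and 207 in diapausing samples, 228, 288 and 235 in reproducing samples and 268, 257 and 228 in young samples, and the 3 groups overlapped. Its second probe, e_1_L, lay between 45.9 and 77.6 on all arrays, beside a mean of negative controls between 54.1 and 68.1. It was well above background only on young replicates 16 and 17.

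The averaged *e* values were 6.35, 5.79 and 5.86 (log2) in diapausing, 5.89, 6.28 and 5.74 in reproducing and 6.47, 6.70 and 6.53 in young samples. On this scale young females were above both older groups without overlap, but this came with the average of both probes. Normalized e_1F1R alone overlapped, with diapausing 27 at 8.21 and reproducing 23 at 7.86 against 7.73 to 8.04 in young samples. The e_1_L probe averaged in was well above background on none of the older arrays, and its raw intensities overlapped as well (70.8 on young 16, 73.4 on diapausing 27). The group means were 6.57 ± 0.12 in young, 6.0 ± 0.31 in diapausing and 5.97 ± 0.28 in reproducing females (SD, n = 3). Probe by probe, log2 fold changes against young females were -0.42 and -0.32 with e_1F1R in diapausing and reproducing females (adjusted p = 0.648 and 0.675; limma over 197 probes). Mean e_1_L in young females was 1.22-fold (diapausing) and 1.20-fold (reproducing) above the lowest signal well above background on the older arrays. These are lower limits for the measured means and not for the true difference, in a young group where 2 of 3 arrays measured the probe. Its changes were not called (adjusted p = 0.252 and 0.135, limma over 197 probes). For the gene the changes were -0.56 in diapausing (95% interval -1.13 to 0.0055, adjusted p = 0.379) and -0.60 in reproducing females (-1.17 to -0.026, adjusted p = 0.198). With e_1_L left out as a dim probe they were -0.42 and -0.32 (limma, adjusted p = 0.589 and 0.660), and the latter change was also -0.32 without reproducing 40. Over the 13 processing alternatives they ranged from -1.11 to 0.26 and from -1.08 to -0.023. Between diapausing and reproducing females the change was 0.032 (95% interval -0.54 to 0.60, adjusted p = 0.937), and its sign turned without diapausing 27 (-0.083) or reproducing 40 (-0.083). The 2 *e* probes correlated at 0.468 over the 9 arrays, the lowest value of the 4 genes.

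*Black*, the source of beta-alanine, had its highest value on young replicate 16 and its lowest on reproducing replicate 40. With Black_1F1R the intensity was 1867, 1432 and 1132 in diapausing, 1642, 1352 and 611 in reproducing and 2028, 3209 and 1963 in young samples. With Black_2F2R it was 2092, 1483 and 1352, then 1911, 1515 and 681, then 2341, 3484 and 2369. Both probes ordered the arrays alike in the diapausing and reproducing groups (Pearson correlation 0.997 over 9 arrays), so that the spread within these groups was shared by separate spots.

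As a gene *b* was at 11.25, 10.18 and 9.94 (log2) in diapausing, at 10.68, 10.39 and 9.02 in reproducing and at 11.21, 11.94 and 11.24 in young samples. The means ran from young (11.46 ± 0.42, SD, n = 3) over diapausing (10.46 ± 0.70) to reproducing females (10.03 ± 0.88). Diapausing replicate 27 overlapped with the young arrays, and the reproducing arrays did not. The fitted level was 2.01-fold lower in diapausing (SE 0.51 on the log2 scale, adjusted p = 0.396) and 2.69-fold lower in reproducing females, each against young females (SE 0.51 for the latter, unadjusted p = 0.0220, adjusted p = 0.142), and neither was called. The change in diapausing females was near 0 under some scalings, at -0.010 and -0.15 with the 75th percentile (background-subtracted and normexp) and 0.029 with quantile normalization. That in reproducing females was -0.60 with quantile normalization and -0.92 without reproducing 40. The difference between diapausing and reproducing females, 0.43 (95% interval -0.74 to 1.59, adjusted p = 0.734), was -0.11 without reproducing replicate 40 and 0.091 without diapausing replicate 27. On slide 3, which held reproducing replicate 40, diapausing minus reproducing was 0.92, against 0.57 and -0.21 on slides 1 and 2.

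*Dat*, which acetylates dopamine, was the 1 member whose fitted mean was lower in diapausing than in reproducing females, and it was not called. With e_1F1R alone, *e* was lower there as well (-0.099). With Dat_1R the intensity was 1314, 1732 and 1674 in diapausing, 2127, 2197 and 1893 in reproducing and 1964, 3128 and 2604 in young samples. With Dat_2F2R it was 3358, 4708 and 4680, then 6116, 6161 and 5298, then 5000, 6994 and 6265. In mean intensity all 3 diapausing arrays were dimmer than each of the other 6 for both probes, and the reproducing and young arrays overlapped. With background-subtracted intensities this did not hold. Reproducing 40 was then at 1172 for Dat_1R, below diapausing 42 and 43 (1427 and 1414). For Dat_2F2R it was at 3454, against 4055 and 4213. How many of all probes separate in this way on mean intensity was not counted.

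Normalized *Dat* was at 11.34, 11.17 and 11.14 (log2) in diapausing, at 11.73, 11.78 and 11.37 in reproducing and at 11.74, 12.43 and 12.15 in young samples. Diapausing and reproducing samples did not overlap, but the gap between diapausing 27 and reproducing 40, 11.34 and 11.37, was small. The means were 11.22 ± 0.11 in diapausing, 11.62 ± 0.22 in reproducing and 12.11 ± 0.35 in young females (SD, n = 3). Non-overlap of these groups was seen for 11 of 108 genes (10.2%), 6 of them (5.56%) lower in diapausing females, and for 1 member in 4. The log2 fold change was -0.41 (SE 0.25, 95% interval -0.97 to 0.16, adjusted p = 0.651), and it was -0.39, -0.61 and -0.22 on slides 1 to 3. It took the opposite sign, 0.20 and 0.0036, under both scalings to the 75th percentile of each array. Against young females *Dat* was at -0.89 in diapausing (SE 0.25, unadjusted p = 0.00640, adjusted p = 0.103) without overlap, and at -0.48 in reproducing females (SE 0.25, adjusted p = 0.308) with overlap. These also changed sign under some scalings: diapausing minus young was 0.11 with background-subtracted values scaled to the 75th percentile, and with quantile normalization the changes were 0.24 in diapausing and 0.66 in reproducing females.

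**Figure D3:**
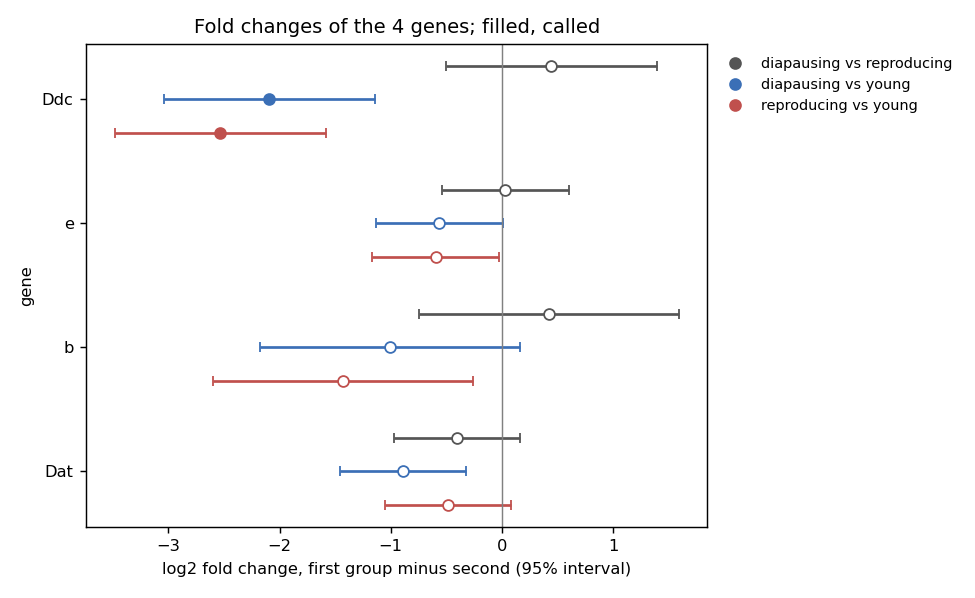
Log2 fold change of the 4 genes in the 3 comparisons, with 95% intervals from limma; filled points are called (adjusted p under 0.05 and fold change over 2). The *Ddc* changes of -2.09 and -2.53 against young females are the filled points, and all 4 intervals for diapausing against reproducing females include 0.

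Taking the members as a group, all 4 had a lower fitted mean than young females in both older groups, where 77.8% of all genes did so in diapausing and 63.9% in reproducing females. Under the 13 processing alternatives between 2 and 4 of the members did so in diapausing females and 3 or 4 in reproducing females, with *Ddc* lower in each. The median log2 fold change of the members was -0.95 in diapausing and -1.01 in reproducing females, beside -0.39 and -0.14 over all 108 genes. The groups did not overlap for 3 of the 4 members in each of these comparisons (17.6% and 29.6% of all genes, or 15.7% and 24.1% in the same direction), *e* being among the 3 only through the average with its dim probe. In diapausing against reproducing females 3 members had a higher and 1 a lower fitted mean (lower for 51.9% of all genes). Of the 3, *e* was higher only through the average with its dim probe. The median of the members was 0.23 against -0.027 over all genes. By limma 0 members were called, with 0 at an unadjusted p under 0.05 (8.33% of all genes). Of their 8 probes 0 were called, against 1.52% of all probes. The 2 comparisons with young females share the young arrays and are not independent of each other.

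A difference between 2 members on the same array does not depend on a common scaling factor, and so the members were also compared with each other. The difference between *Ddc* and each other member was lower in older than in young females. The change of *Ddc* minus *Dat* was -1.20 (log2) in diapausing and -2.05 in reproducing females against young females. Relative to *e* the change of *Ddc* was -1.53 and -1.94, and relative to *b* it was -1.09 and -1.10. In these 6 contrasts the older and the young arrays did not overlap. Each had p = 0.1 in an exact two-sided permutation test, the smallest value that 3 against 3 arrays allow. Adjusted over the 18 contrasts of 6 pairs in 3 comparisons, the value was 0.225. The 6 contrasts share the young arrays and *Ddc*, the member with the largest fitted changes against young females. They are therefore not separate support for its lower level, and the share of other gene pairs without overlap was not counted. Only contrasts without overlap were run through the alternatives. All 6 contrasts kept their sign in the 13 processing alternatives and with each array left out. These alternatives are not 13 separate checks. Scalings of the background-subtracted values cancel in such a difference and gave the same value. The slide term and the fit of 2 groups repeated the main value. *Ddc* minus *e* came down to -0.79 in diapausing (background-subtracted values) and -1.13 in reproducing females (deposited table). The change of *b* minus *Dat* in reproducing females was -0.95 (exact p = 0.1) without overlap, and became 0.095 with the deposited table of processed values. Between diapausing and reproducing females only *e* minus *Dat* did not overlap (0.44 higher in diapausing females, exact p = 0.1; 0.068 with background-subtracted values and 0.11 with the deposited table), and the smallest of the 6 differences was that of *Ddc* minus *b* (0.018, exact p = 1).

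**Figure D4:**
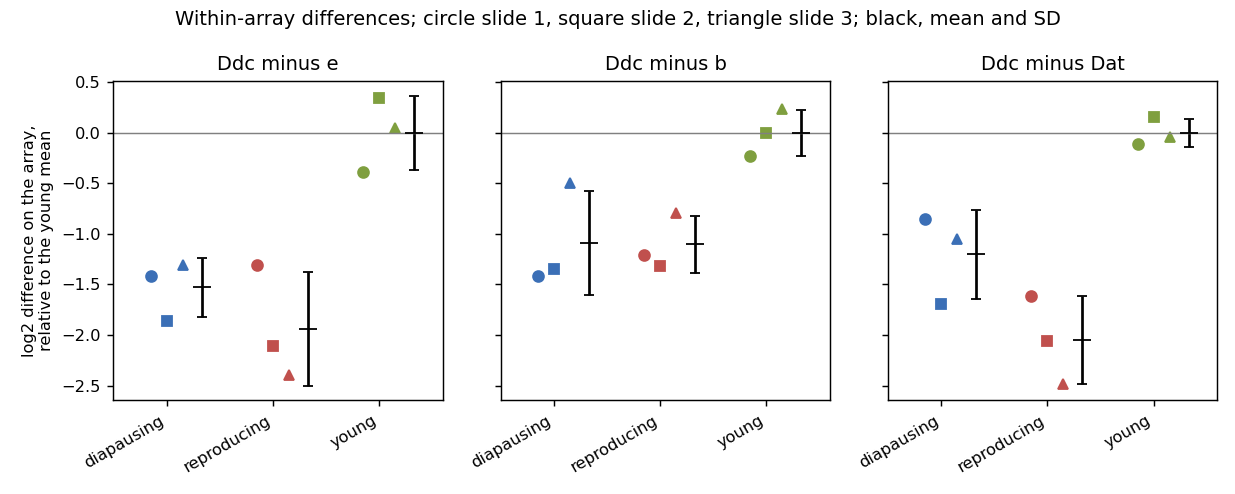
Log2 difference between *Ddc* and each other member on the same array, relative to the mean of the young arrays; symbols give the slide, black the mean and SD (n = 3). Group means of the older females lie between -1.09 and -2.05, with no overlap with the young arrays.

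Correlations between genes over the 9 arrays are given as a description, since the arrays hold the group differences and genes share each array. *Ddc* correlated with *b* at 0.888, with *e* at 0.885 and with *Dat* at 0.802, and the lowest pair was *b* and *Dat* at 0.706. Among the 82 other genes with a probe well above background on all arrays of a group, the 3 most like *Ddc* were *stv*, a co-chaperone (Pearson correlation 0.973), *slo*, a calcium-activated potassium channel (0.957), and *so*, a transcription factor of eye development (0.952). For *e* they were *so* (0.953), *CG14650* (0.944) and *ninaC*, a photoreceptor protein (0.898). For *b* they were *CoI* (0.963), the clock transcription factor *Clk* (0.947) and *stv* (0.947). The genes most like *Dat* were *dnc*, a cAMP phosphodiesterase (0.891), *shakB*, a gap junction protein (0.861), and *so* (0.847).

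The array also held other genes of cuticle, nerve, eye and ovary. The cuticle and bristle genes *dy* and *pwn* were well above background on no array, so that neither could be read beside the members. The fitted mean of 8 of 9 genes of neuronal excitability and transmission was lower in diapausing than in young females (77.8% of all genes). For 6 it was lower in reproducing than in young females (63.9% of all genes). Over the processing alternatives these counts were 2 to 8 and 4 to 7, and they include 2 genes well above background on no array. The neuronal genes called by limma were *slo* in diapausing females (-1.65, adjusted p = 0.0344) and *slo* and *shakB* in reproducing females (-1.91, adjusted p = 0.00936, and -2.06, adjusted p = 0.0257). All 13 photoreceptor genes had lower fitted means in both older groups than in young females, with median changes of -0.54 and -1.18. By limma 0 of these genes were called, and 0 and 3 had an unadjusted p under 0.05 (10.2% and 23.1% of all genes). Over the processing alternatives 5 to 13 of them were lower in diapausing and 11 to 13 in reproducing females, with at most 1 and 2 called. Their summed level (normalized values on the linear scale) was between 28400 and 131000 in diapausing, 4970 and 73800 in reproducing and 64900 and 90200 in young samples. For 9 genes with ovarian and maternal transcripts, the fitted mean was lower in diapausing than in reproducing females for all 9 (51.9% of all genes). The median was -0.77. By limma 0 of these 9 were called, and 2 had an unadjusted p under 0.05 (8.33% of all genes). Over the alternatives 5 to 9 were lower, with at most 2 called. Their summed level was between 1070 and 4480, 2390 and 6490, and 2170 and 3160 in diapausing, reproducing and young samples. The part of eye, nerve and ovary tissue in the changes of the members was not tested.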

How the data were processed

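Expression was measured in 9 one-colour arrays, 3 each of diapausing, reproducing and young females, groups read from abbreviations in the sample titles. As deposited by the authors, the scanner files hold spot intensity values from Feature Extraction (version 9.5.1.1 in the file headers), with local backgrounds and background-subtracted intensities, none scaled between arrays. A table of 197 processed intensity values per array, also deposited, served as an alternative only, since the column of reproducing replicate 40 followed its array less closely (correlation across probes 0.916) than the others (0.998 or more).

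The arrays carried 208 experimental probes; the 197 in the deposited table were used and 11 left out. Outlier spots were removed, copies of a probe averaged, and variance stabilizing normalization (VSN), rewritten in R 4.3.3, was fitted on the mean intensity of experimental and 200 spike-in spots (trimming quantile 0.5, 5 slices, 7 rounds). Log2 values of a gene's probes were averaged. The fit in limma 3.58.1 covered all 108 genes and 9 arrays, one mean per group, with Benjamini-Hochberg adjustment. Differences between members were tested with exact two-sided permutation tests. The procedure was checked on simulated data whose spike-in spots had no difference between groups, so the check does not cover that of these arrays. Python 3.11.15 with matplotlib 3.10.9 made the figures.

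The members, gene lists and rules were chosen with earlier results of these data known. The genes named are the 4 members, the 3 genes most correlated with each, and list genes that were called; *Dca* was named after its value was seen. Alternatives were VSN with a quantile of 0.9 or on spike-in spots only; background-subtracted intensities scaled to the 75th percentile, scaled to the mean of 7 housekeeping genes, or unscaled; normexp (offset 50) with 75th percentile or quantile scaling; the deposited table; no removal of outlier spots; no dim probes; the brightest probe; probes tested singly; a slide term; a fit of 2 groups at a time; no fold change minimum; and leaving out each array. The deposited table without reproducing replicate 40 was chosen after seeing the data. With 3 arrays per group, their number limits the precision.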

Additional observations from a re-analysis of the deposited data

How the results depend on the processing

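Over the processing alternatives the median change of all genes lay between -0.48 (deposited table) and 0.27 (log2) in diapausing against reproducing, -0.52 (deposited table) and 0.37 in diapausing against young and -0.31 (dim probes left out) and 0.15 in reproducing against young females. For the members, 267 of 300 alternative values kept their sign and side of the threshold, 14 lost a call and 19 changed sign, and the cause was not tested. *Ddc* in diapausing against young females lost its call with VSN on spike-ins alone (-2.11), 75th percentile scaling (-1.17 background-subtracted, -1.20 normexp), quantile normalization (-1.11), slide as a block (-2.09) and only 2 groups (-2.09); with arrays left out it was between -2.33 and -1.81, and in reproducing against young females between -2.85 and -2.15. *e* in diapausing against reproducing females became -0.38 (housekeeping mean), -0.23 (unscaled), -0.030 (deposited table), -0.24 (deposited table without reproducing 40) and -0.099 (dim probes left out, brightest probe, lowest probe), and was between -0.083 and 0.17 with arrays left out. *b* there became -0.36 with the deposited table and -0.063 with that table without reproducing 40, and was between -0.11 and 0.81 with arrays left out. *Dat* there became 0.20 and 0.0036 with 75th percentile scaling (background-subtracted and normexp). In diapausing against young females *e* became 0.26 (normexp, 75th percentile), *b* 0.029 (quantile) and *Dat* 0.11 (background-subtracted, 75th percentile) and 0.24 (quantile), and in reproducing against young females *Dat* became 0.66 (quantile). The change of *b* minus *Dat* in the latter became 0.095 with the deposited table.

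Counts of called genes also moved. From 1 gene in diapausing against reproducing females they went to 0 (spike-ins alone, unscaled, dim probes left out, slide block, only 2 groups, deposited table without reproducing 40), 2 (brightest probe, probes singly), 4 (quantile), 5 (normexp, 75th percentile), 7 (housekeeping mean) and 10 (background-subtracted, 75th percentile), and 0 to 6 with arrays left out. From 2 in diapausing against young females they went to 0 (spike-ins alone, quantile, slide block, only 2 groups), 4 (housekeeping mean, unscaled, probes singly), 5 (trimming quantile of 0.9, brightest probe), 6 (deposited table) and 8 (background-subtracted, 75th percentile), and 0 to 6 with arrays left out. From 9 in reproducing against young females they went to 20 (background-subtracted, 75th percentile), 4 (slide block, deposited table without reproducing 40) and 5 (only 2 groups), and 0 to 12 with arrays left out, 0 being without young 16 or young 17. The groups share no replicate numbers, so arrays were paired by slide, each holding 1 array of every group, in the slide block fit. Signal limits *e*, whose second probe was well above background on 2 arrays.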
